A study of Mus musculus with 6 samples.

Results

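Potassium channels are the largest family of ion channels, and the mouse genes that encode their pore-forming and accessory subunits carry names that begin with Kcn. The genes were followed here in hippocampi from heterozygous mice deficient in Ep300, which encodes the lysine acetyltransferase and transcriptional coactivator p300. A probe set was taken as a member where its annotation gave exactly 1 gene symbol and that symbol began with Kcn, followed by letters and a number. The rule found 167 of the 45037 probe sets tested, which stood for 84 of the 18193 genes measured. It used names only and no measured value. It also took in 3 non-coding RNAs that are named after a neighbouring channel gene. They are included in all counts of channel probe sets and channel genes, and were set apart only where subfamilies were read.

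The p300+/- mice were heterozygous for the deficiency, and the mice they were compared with were wild-type littermates. Both genotypes were C57BL/6 females aged 3 months. RNA was extracted from each hippocampus, and equal amounts from 4 animals were pooled for each array, so that 3 p300+/- arrays and 3 wild-type arrays stood for 12 animals of each genotype. The submitters described the pools as independent biological replicates, and the spread between animals within a pool cannot be read. How the allele was altered, and whether in every cell of the body, is not stated in the labels.

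Channels of this family open a pore through the cell membrane that lets potassium pass, which pulls the membrane towards its resting voltage. Voltage-gated members (Kv) end action potentials and set how readily a neuron fires, inward rectifiers (Kir) and leak channels (K2P) hold the resting voltage, and calcium-activated members (BK and SK) follow each spike with a hyperpolarization. In the hippocampus, A-type currents carried by Kv4 channels limit signals that travel back into the dendrites of pyramidal cells, and M currents carried by Kv7 channels restrain bursts of spikes. Astrocytes take up potassium through Kir4.1, and the epithelium of the choroid plexus, which borders the hippocampus in the lateral ventricle and makes cerebrospinal fluid, uses another inward rectifier.

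The values were log2 intensities relative to each probe set's own median over the 6 arrays, so a value of 0 is the middle of the arrays and no absolute level is given. Differences are p300+/- minus wild-type on this log2 scale. Ep300 itself (1434765_at) was at -0.26, -0.22 and -0.50 in p300+/- 1, 2 and 3, against 0.22, 0.38 and 0.40 in wild-type 1, 2 and 3. Every p300+/- array lay below every wild-type array, at a log2 fold change of -0.66 ± 0.13 (SE). It missed the threshold once adjusted for the whole table (limma, adjusted p = 0.9999), and the labels do not say which part of the gene was altered. A pair of arrays stood apart from the rest. Over all probe sets p300+/- 3 had an SD of 0.29 and wild-type 2 of 0.33, against 0.18 to 0.21 in the other arrays. The values of p300+/- 3 and wild-type 2 correlated across probe sets (r = 0.55, as a description) although they belong to opposite genotypes. This was not particular to them, since p300+/- 1 and wild-type 1 correlated at r = 0.45. Over the channel probe sets alone r was 0.23 for p300+/- 3 with wild-type 2 and 0.42 for p300+/- 1 with wild-type 1. Both p300+/- 3 and wild-type 2 had low medians over the markers of hippocampal neurons. All 9 of these markers were measured and 8 were in the brightest level class, so the defining markers of the labelled tissue were present. Calb1 and Neurod6 went the other way and were above 0 in both arrays. The median of that list was 0.068, 0.00062 and -0.28 in the p300+/- arrays and 0.026, -0.64 and 0.20 in the wild-type arrays. In bulk tissue, fewer cells of a type and less RNA per cell cannot be told apart.

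No potassium channel probe set passed the test between genotypes. Of the 167 probe sets 0 had an adjusted p under 0.05, and over all probe sets the share called was 0% (limma, Benjamini-Hochberg over 45037 probe sets, smallest adjusted p among the channels 0.9999). At an unadjusted p under 0.05 there were 5 channel probe sets of 5 genes (the non-coding Kcnq1ot1 among them), or 2.99%, against 1.22% of all probe sets. Evenly spread p values would put 8.35 of the 167 channel probe sets under 0.05, which is more than were found. Of the 5 probe sets, 3 were higher in p300+/- pools (0.77% of all probe sets were) and 2 were lower (0.451%). The arrays of the genotypes did not overlap at 9 channel probe sets, against 5.39% of all probe sets, and the channels' own share was the same to that precision. Among them p300+/- was higher at 4 (3.19% of all probe sets) and lower at 5 (2.2%). Over the 84 genes, read by 1 probe set each, 41 lay above 0 and 43, with the 3 non-coding RNAs, lay below. That is 48.8% above 0, where 55.9% of all genes were, and the median log2 fold change was -0.0047 for the channel genes and 0.018 for all genes.

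These counts come with a stated precision, which the number of arrays sets. The middle of the channel genes' log2 fold changes, between their quartiles, ran from -0.13 to 0.11. The 95% interval of the fold change lay within 2-fold either way at 154 of the 167 probe sets (92.2%, against 95.5% of all) and within 1.5-fold at 112 (67.1%, against 74.2%). A missed threshold does not show that a channel was equal in the genotypes. It bounds the difference by that interval. Brightness could be read only as a coarse class of the log2 level before centring. The class from 8 to 16 held 53 of the probe sets, that from 4 to 8 held 99 and that from 2 to 4 held 15, and probe sets of the last class may carry little signal.

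**Figure D1:**
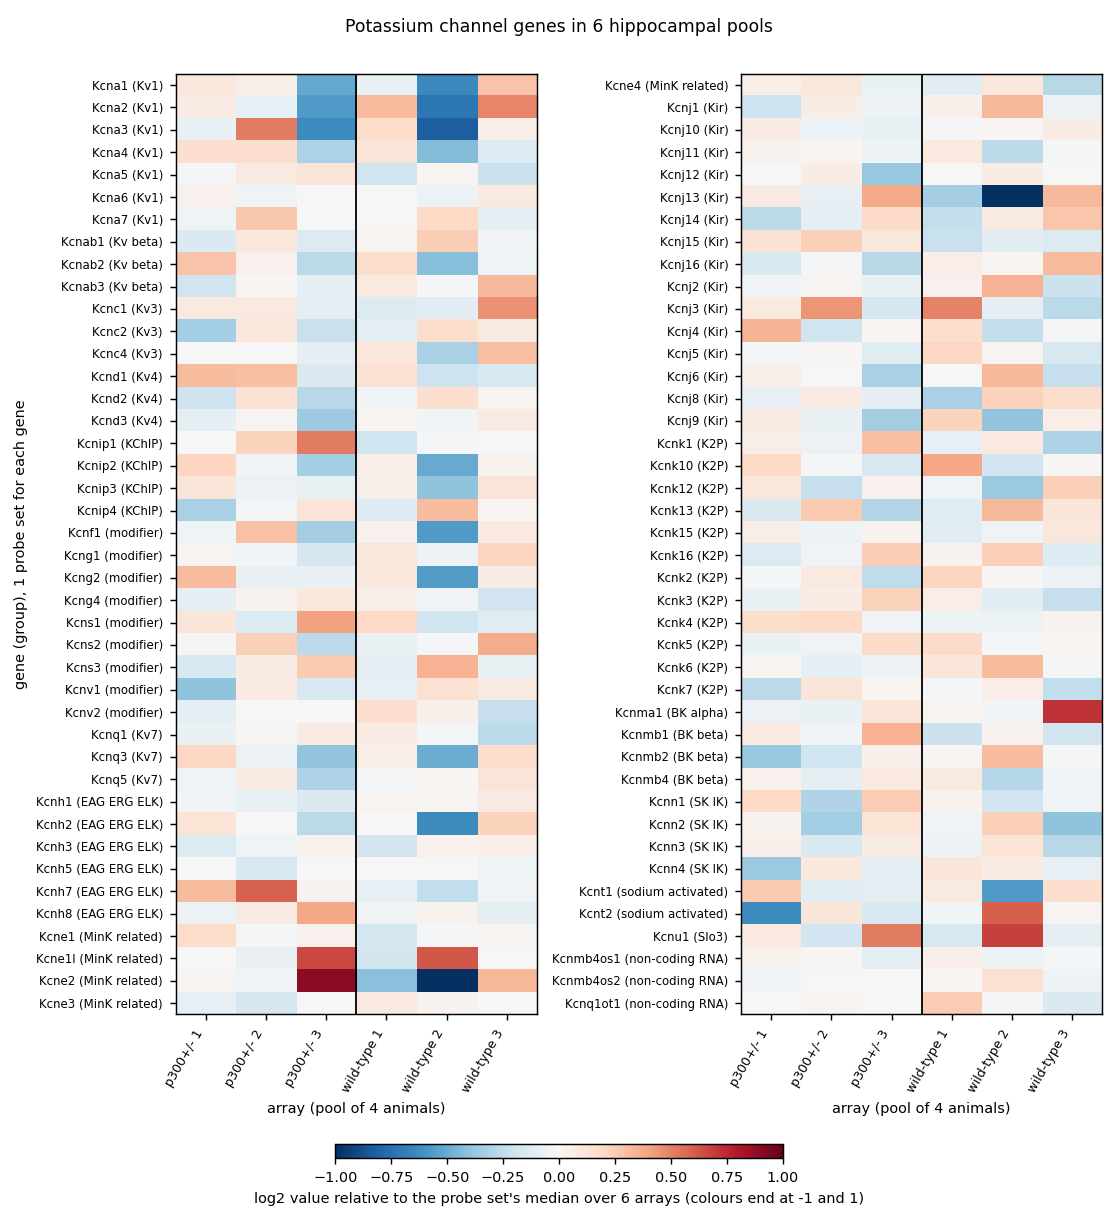
Heat map of the 84 potassium channel genes (rows, with their group in brackets) in the 3 p300+/- arrays and the 3 wild-type arrays (columns, split by a line), coloured by the log2 value relative to the probe set's median over 6 arrays, with colours ending at -1 and 1. Kcna1, Kcna2, Kcna3 and Kcna4 are blue in both p300+/- 3 and wild-type 2, and Kcnj13 and Kcne2 are at the end of the blue scale in wild-type 2 only.

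The highest log2 fold changes among the channels were those of genes known from the choroid plexus, and they rested on a single array. Kcnj13 encodes Kir7.1, an inward rectifier of the apical membrane of choroid plexus epithelium, and Kcne2 encodes an accessory subunit that joins Kv7.1 in the same epithelium. They are shown first by the sequence around their annotated starts, since both shared an extreme value in the same array. Each window runs from 250 bases before to 50 bases after a transcript start in RefSeq (GRCm38.p6), 5′ to 3′ on the gene's own strand, and Kcne2 has a pair of annotated starts. Capitals mark TGACG, the core that CREB sites share, or TATAAA, the TATA box, on either strand (CGTCA and TTTATA are the opposite strands).
Kcnj13, chr1:87394680-87394979, minus strand: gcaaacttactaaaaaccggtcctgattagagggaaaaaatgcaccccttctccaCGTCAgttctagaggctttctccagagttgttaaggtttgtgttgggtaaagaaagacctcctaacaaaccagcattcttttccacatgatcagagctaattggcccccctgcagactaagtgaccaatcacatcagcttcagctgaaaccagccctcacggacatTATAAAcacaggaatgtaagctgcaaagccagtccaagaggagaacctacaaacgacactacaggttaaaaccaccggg
Kcne2, chr16:92292139-92292438, plus strand: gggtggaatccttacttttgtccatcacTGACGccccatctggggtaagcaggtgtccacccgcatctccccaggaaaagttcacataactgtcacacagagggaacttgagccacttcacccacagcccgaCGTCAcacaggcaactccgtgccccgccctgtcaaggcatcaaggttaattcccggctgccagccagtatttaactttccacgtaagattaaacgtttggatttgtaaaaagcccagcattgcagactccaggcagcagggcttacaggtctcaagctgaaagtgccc
Kcne2, chr16:92295366-92295665, plus strand: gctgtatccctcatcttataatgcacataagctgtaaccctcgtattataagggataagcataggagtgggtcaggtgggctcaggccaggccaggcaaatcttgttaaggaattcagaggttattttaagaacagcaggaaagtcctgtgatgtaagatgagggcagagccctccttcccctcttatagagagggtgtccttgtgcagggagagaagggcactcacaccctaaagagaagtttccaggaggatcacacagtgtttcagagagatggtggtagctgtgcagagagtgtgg
The Kcnj13 window held 1 TGACG and 1 TATAAA, the upstream Kcne2 window held 2 TGACG and 0 TATAAA, and the other Kcne2 window held neither. Windows of 64 channel genes, 89 in all, were searched. TGACG occurred in 16 of them (18%, against 20.8% of all 32851 promoter windows), TATAAA in 5 (5.62%, against 13.6%) and the full palindrome TGACGTCA in 0 (against 1.79%). The short motif TGACG is also contained in that palindrome. A match describes letters in the window and is not a bound site.

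Kcnj13 (1456418_at) was at 0.085, -0.085 and 0.38 in p300+/- 1, 2 and 3, against -0.34, -3.60 and 0.33 in wild-type 1, 2 and 3. Wild-type 2 lay far below the other arrays, and the p300+/- values lay between wild-type 1 and wild-type 3 or just above them. The log2 fold change was 1.33 ± 0.90 (SE) and did not pass (limma, unadjusted p = 0.181). Kcne2 (1449421_a_at) was at 0.025, -0.025 and 0.90 in the p300+/- arrays, against -0.42, -3.21 and 0.33 in the wild-type arrays. Its log2 fold change of 1.40 ± 0.83 (SE) was the highest of all 45037 probe sets and did not pass (limma, unadjusted p = 0.131), while that of Kcnj13 ranked 3. In wild-type 2, Kcnj13 held the 2nd lowest value of that array and Kcne2 the 3rd lowest. With wild-type 2 left out the differences were 0.13 ± 0.23 (SE) for Kcnj13 and 0.34 ± 0.34 for Kcne2. With p300+/- 3 left out too they were 0.0048 and 0.043.

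The same array was low in the other markers of the choroid plexus. Of 18 listed markers 17 were measured, 17 were higher in p300+/- pools (55.9% of all genes were) and 17 were lowest in wild-type 2. Their medians were 0.13, -0.076 and 0.33 in the p300+/- arrays, against -0.12, -2.01 and 0.32 in the wild-type arrays, and their median log2 fold change was 0.67. The size of the drop varied over the list. Ttr, the thyroxine carrier that this epithelium secretes, was the lowest marker in wild-type 2 at -3.20 and lay between -0.040 and 0.043 in the other 5 arrays. Kl, Tmem72 and Krt8 were the least low in wild-type 2, at -0.14, -0.21 and -0.29. The part of choroid plexus tissue in the Kcnj13 and Kcne2 values was not tested. Kcnq1, the Kv7.1 partner of Kcne2 in this epithelium, was at -0.065, 0.011 and 0.085 in the p300+/- arrays, against 0.078, -0.011 and -0.26 in the wild-type arrays. Wild-type 2 was thus in the middle of the arrays for Kcnq1 (1449464_at, of the middle level class).

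**Figure D2:**
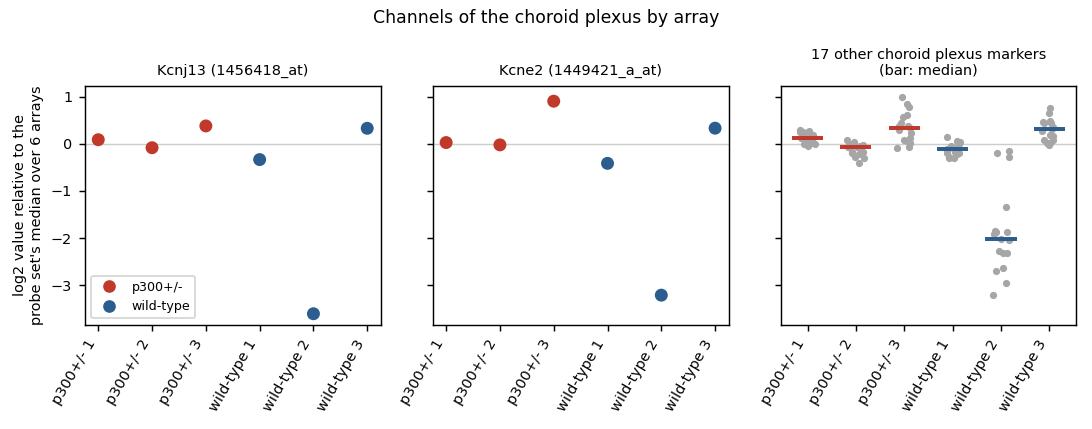
Log2 values relative to the median of 6 arrays for Kcnj13, Kcne2 and the 17 measured choroid plexus markers (grey points, bar at the median) in the 3 p300+/- arrays (red) and the 3 wild-type arrays (blue). Wild-type 2 lies at -3.60 for Kcnj13, -3.21 for Kcne2 and a median of -2.01 for the markers. In the other arrays Kcnj13 lies between -0.34 and 0.38, Kcne2 between -0.42 and 0.90 and the marker median between -0.12 and 0.33.

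Outside the choroid plexus, the 10 channel genes with the smallest unadjusted p were Kcnq1ot1, Kcnj15, Kcnma1, Kcnh7, Kcnip4, Kcnab1, Kcna4, Kcnj16, Kcnip1 and Kcnk3. None passed. Kcnh7 encodes ERG3, a voltage-gated subunit of the ether-a-go-go related group whose slow current steadies the resting voltage of neurons. Its probe set (1427634_at) was at 0.32, 0.59 and 0.035 in the p300+/- arrays, against -0.084, -0.25 and -0.035 in the wild-type arrays. All p300+/- arrays lay above all wild-type arrays, and p300+/- 3 came nearest to them. The log2 fold change was 0.44 ± 0.16 (SE), or 1.35-fold (limma, unadjusted p = 0.029), and it ran from 0.30 without p300+/- 2 to 0.58 without p300+/- 3. This gene has a single probe set in the level class from 4 to 8.

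Kcnip4 encodes KChIP4, a calcium-binding subunit that shapes the A-type current of Kv4 channels. One of its probe sets, 1450370_a_at, was at 0.035, 0.19 and 0.25 in the p300+/- arrays, against -0.18, -0.035 and -0.26 in the wild-type arrays. The genotypes did not overlap, and the log2 fold change was 0.32 ± 0.12 (SE; limma, unadjusted p = 0.0331). The other probe sets of the gene, in the same bright class, had the opposite sign at -0.14 ± 0.17 and -0.055 ± 0.16. Kcnip1 (KChIP1, abundant in interneurons) was at 0.32 ± 0.16 in 1416785_at, where p300+/- 3 was highest at 0.52. Its other bright probe set was at 0.0023 ± 0.21, and the remaining pair at 0.064 and 0.074.

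Kcnab1 encodes the Kv beta 1 subunit, which binds Kv1 channels from the inside and lets them inactivate. It split in the same way as Kcnip4. Its probe set 1454043_a_at was at 0.19, 0.40 and 0.036 in the p300+/- arrays, against -0.065, -0.036 and -0.16 in the wild-type arrays, without overlap. The log2 fold change there was 0.30 ± 0.13 (SE; limma, unadjusted p = 0.0563). Its other probe set, 1448468_a_at, also in the brightest class, was at -0.14 ± 0.13, with p300+/- 2 above the lower 2 wild-type arrays.

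Kcna4 encodes Kv1.4, an inactivating channel of axons and terminals, and its probe sets also disagreed. The probe set 1438613_at was at -0.25, -0.038 and -0.093 in the p300+/- arrays, against 0.038, 0.24 and 0.14 in the wild-type arrays. Every p300+/- array was the lower, at -0.27 ± 0.12 (SE; limma, unadjusted p = 0.0585). The other, 1422255_at, was at 0.15 ± 0.20, and its low arrays were p300+/- 3 at -0.32 and wild-type 2 at -0.43. Both were in the level class from 4 to 8.

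Kcnma1 encodes the pore of BK channels, which open with both calcium and depolarization and speed the repolarization of spikes. It was read by 5 probe sets, of which 4 lay below 0. The probe set 1428948_at was at -0.072, -0.20 and -0.13 in the p300+/- arrays, against 0.072, 0.37 and 0.18 in the wild-type arrays. The genotypes did not overlap, and wild-type 2 was the highest array. The log2 fold change was -0.34 ± 0.12 (SE; limma, unadjusted p = 0.0253), and it lay between -0.41 and -0.26 with an array left out. The pair of probe sets in the brightest class had opposite signs. Of these, 1424848_at was at -0.24 ± 0.21, where wild-type 3 stood alone at 0.72, and without that array it was at -0.0040, while 1425987_a_at was at 0.098 ± 0.15. The dimmer ones were at -0.69 ± 0.49 and -0.28 ± 0.25 (1440728_at and 1457018_at).

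Kcnj15 encodes Kir4.2, an inward rectifier known best from epithelia. Its probe set 1450185_a_at was at 0.15, 0.24 and 0.12 in the p300+/- arrays, against -0.22, -0.12 and -0.13 in the wild-type arrays. The genotypes were separated by a gap, at 0.32 ± 0.11 (SE; limma, unadjusted p = 0.0183), and the value lay between 0.29 and 0.35 with an array left out. Its other probe sets, both in the lowest level class, were at 0.053 and -0.14. Kcnj16 encodes Kir5.1, which pairs with Kir4.1 in astrocytes. One probe set (1435094_at) was at -0.15, -0.019 and -0.27 in the p300+/- arrays, against 0.066, 0.019 and 0.32 in the wild-type arrays. These did not overlap (-0.28 ± 0.13, limma, unadjusted p = 0.0687), while the other, 1436163_at, was at 0.0040 ± 0.16. Beside it, 11 of 11 astrocyte markers were measured, 2 of them higher in p300+/- pools (55.9% of all genes were) and 9 lower. Their median log2 fold change was -0.077. The part of astrocyte RNA in the Kcnj16 value was not tested.

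Kcnk3 encodes TASK1, a leak channel closed by acid. It was above 0 in its 3 probe sets, at 0.27 ± 0.14 (SE) in 1425342_a_at, 0.17 ± 0.14 and 0.080 ± 0.11. In the first, p300+/- 2 was highest at 0.40, and p300+/- 1 lay at -0.0063, below wild-type 2. The last of the 10 is Kcnq1ot1, a long non-coding RNA transcribed from within Kcnq1 against its direction, which silences imprinted genes on the paternal chromosome. Its probe set 1442029_at was at 0.0076, -0.47 and -0.35 in the p300+/- arrays, against 0.67, -0.0076 and 0.39 in the wild-type arrays. Here p300+/- 1 lay above wild-type 2, so the genotypes overlapped. The log2 fold change was -0.62 ± 0.20 (SE; limma, unadjusted p = 0.0175), the smallest p among the channel names. Its 5 other probe sets lay between -0.16 and 0.034. Those in the brightest class were at -0.019 ± 0.13 (1441588_at) and -0.065 ± 0.35 (1458161_at).

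**Figure D3:**
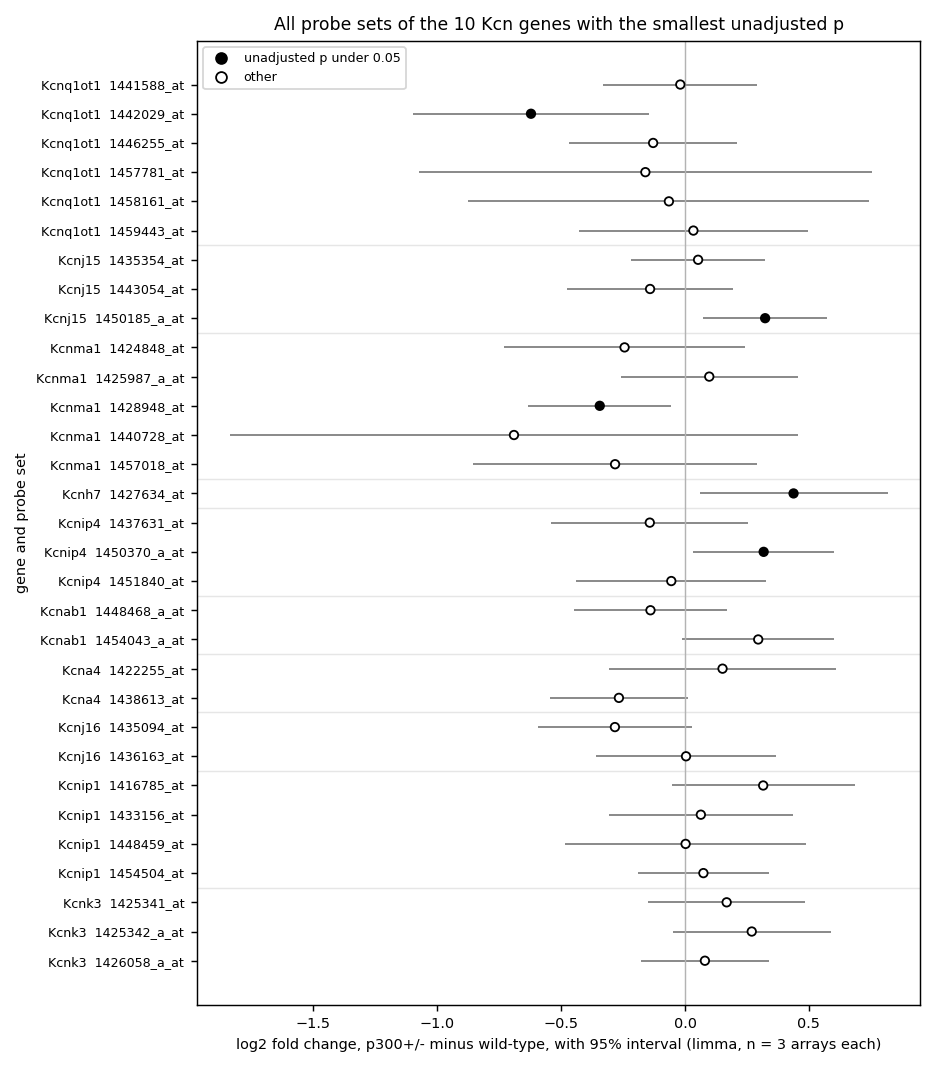
Log2 fold changes (points, p300+/- minus wild-type) with 95% intervals from limma (3 arrays each) for every probe set of the 10 channel genes with the smallest unadjusted p, with filled points where the unadjusted p is under 0.05. The 5 filled points belong to 5 genes, and the probe sets of Kcnq1ot1, Kcnj15, Kcnma1, Kcnip4, Kcnab1, Kcna4 and Kcnj16 lie on both sides of 0.

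Among the Kv1 genes, which encode low-threshold channels of axons and terminals, 5 of 7 lay above 0 and 2 below, with a median log2 fold change of 0.045. The array medians were 0.043, 0.088 and -0.32 in p300+/- pools, against 0.0042, -0.43 and 0.066 in wild-type pools, so that the low arrays were p300+/- 3 and wild-type 2. Kcna1 (Kv1.1) was at 0.11, 0.067 and -0.51 in the p300+/- arrays of 1417416_at, against -0.067, -0.64 and 0.28 in the wild-type arrays. The same pair of arrays was low for Kcna2 (Kv1.2), the usual partner of Kv1.1 at the juxtaparanodes of myelinated axons. Its probe set 1439872_at was at 0.084, -0.084 and -0.56 in the p300+/- arrays, against 0.32, -0.72 and 0.49 in the wild-type arrays. The log2 fold changes were 0.029 ± 0.27 (SE) for Kcna1 and -0.22 ± 0.33 for Kcna2, the lowest of the group, and Kcna5, known from heart and vessels, was highest at 0.20 ± 0.12. Kcnab2, the main beta subunit of the brain, was at 0.11 ± 0.20. Its other probe set, 1425885_a_at, was at 0.42, 0.46 and -0.87 in the p300+/- arrays, against -0.17, -1.90 and 0.17 in the wild-type arrays, or 0.64 ± 0.58. Kcnab3 was at -0.22 ± 0.13 in its bright probe set and 0.052 ± 0.19 in the other.

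The Kv3 genes encode fast channels that let interneurons fire at high rates. At the probe set used for each gene, all 3 measured lay below 0, with a median of -0.058. Kcnc2 (Kv3.2) was at -0.34, 0.11 and -0.22 in the p300+/- arrays, against -0.087, 0.18 and 0.087 in the wild-type arrays. The genotypes overlapped at -0.21 ± 0.15 (SE). Kcnc1 (Kv3.1), a marker of parvalbumin interneurons, was at -0.037 ± 0.18, and its other probe sets ran from -0.11 to 0.051. Kcnc4 (Kv3.4) was at -0.058 ± 0.17, and its dimmer probe set was at 0.055 ± 0.13. Beside these, 8 of 8 interneuron markers were measured, 5 of them higher in p300+/- pools (55.9% of all genes were), with a median of 0.065.

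Kv4 channels and their KChIP subunits make the A-type current of pyramidal cell dendrites. Kcnd2 (Kv4.2), the main subunit in CA1, was at -0.21, 0.15 and -0.27 in the p300+/- arrays of 1422835_at, against -0.024, 0.17 and 0.024 in the wild-type arrays. Among the p300+/- arrays the second lay within the wild-type range, and the log2 fold change was -0.17 ± 0.15 (SE). A second bright probe set gave -0.12 ± 0.17. Kcnd3 (Kv4.3), prominent in interneurons and the dentate gyrus, was at -0.17 ± 0.13 with p300+/- 3 lowest at -0.36. Its dimmer probe sets ran from -0.074 to 0.17. Kcnd1 was at 0.23 ± 0.17 in the probe set used for the gene. Its other probe sets, of the same level class, lay below 0, at -0.20 ± 0.20 and -0.11 ± 0.13. The group's median was -0.17. Of the KChIP genes 3 of 4 lay above 0, with a median of 0.074. Kcnip2 (KChIP2) was at 0.085 ± 0.21 and Kcnip3, which encodes KChIP3, a calcium sensor also described as the transcriptional repressor DREAM, at 0.064 ± 0.16. Wild-type 2 was the lowest array for both, at -0.51 and -0.40, and reached -1.04 in the other bright probe set of Kcnip2. In the dimmer probe set of Kcnip2 wild-type 2 was instead the highest array at 0.34, and the log2 fold change was -0.027 ± 0.16. The dimmer probe set of Kcnip3 was at 0.26 ± 0.22, with wild-type 2 lowest at -0.33.

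The silent subunits (Kcnf, Kcng, Kcns and Kcnv) form no channel alone and modify Kv2 channels. They lay on both sides of 0. Kcnf1 was at 0.11 ± 0.23 (SE) in 1 probe set and -0.22 ± 0.16 in the other. The Kcng median was 0.075 over 3 genes, with Kcng2 at 0.18 ± 0.21, Kcng4 at 0.075 ± 0.12 and Kcng1 at -0.15 ± 0.12. The other Kcng1 probe set, of the same level class, was at 0.12 ± 0.13. For Kcns the median was 0.0026, with Kcns1 at 0.17 ± 0.18, Kcns3 at 0.0026 ± 0.17 and Kcns2 at -0.10 ± 0.18. The other Kcns3 probe set was at 0.20 ± 0.19 and the dimmer one of Kcns2 at 0.081 ± 0.25. Kcnv1, which is abundant in the forebrain, was at -0.40, 0.079 and -0.16 in the p300+/- arrays, against -0.079, 0.15 and 0.090 in the wild-type arrays. These overlapped at -0.21 ± 0.15 in the bright probe set. The dimmer Kcnv1 probe sets lay above 0, at 0.061 ± 0.14 and 0.12 ± 0.13. Kcnv2, known from photoreceptors, was at -0.030 ± 0.14.

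Kv7 genes were near 0 as a group, with a median of 0.0040. Kcnq3, a subunit of the neuronal M current, was at 0.20, -0.059 and -0.40 in the p300+/- arrays, against 0.059, -0.50 and 0.18 in the wild-type arrays. Its log2 fold change was 0.0040 ± 0.22 (SE), and its lowest arrays were again p300+/- 3 and wild-type 2. The dimmer Kcnq3 probe set was at -0.094 ± 0.18. Kcnq5, another M-current subunit, was at -0.13 ± 0.14 with p300+/- 3 lowest at -0.31, and its dimmer probe sets were at -0.12 ± 0.16 and -0.30 ± 0.39. Kcnq1 was at 0.075 ± 0.13.

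In the ether-a-go-go group 3 of 6 genes lay above 0. Besides Kcnh7, Kcnh8, an ELK channel, was at 0.17 ± 0.14 (SE), with p300+/- 3 highest at 0.39. Kcnh1 (EAG1) had the lowest value at -0.13 ± 0.11. It was at -0.025, -0.067 and -0.14 in the p300+/- arrays, against 0.027, 0.025 and 0.090 in the wild-type arrays. The genotypes did not overlap by a narrow margin, and the other Kcnh1 probe set was at -0.10 ± 0.20. Kcnh3, the forebrain member of the ELK channels, was at -0.020 ± 0.12 in the probe set used for the gene (1421619_at), while the remaining ones, with 1445805_x_at and 1459107_at in the same level class, ran from 0.014 to 0.11. The MinK-related subunits other than Kcne2 lay between -0.13 and 0.13. Kcne3 was lower in each p300+/- array, at -0.080, -0.16 and -0.0030, against 0.098, 0.039 and 0.0030 in the wild-type arrays. That probe set is in the lowest level class and its log2 fold change was -0.13 ± 0.11.

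Inward rectifiers are the largest group, with 15 genes, of which 5 lay above 0 and 10 below at a median of -0.064. Kcnj10 (Kir4.1), the main potassium channel of astrocytes, was at 0.085, -0.056 and -0.073 in the p300+/- arrays, against -0.020, 0.020 and 0.075 in the wild-type arrays. The genotypes overlapped at -0.040 ± 0.11 (SE), and the fold stood at 0.973. Kcnj3, Kcnj6 and Kcnj9 encode GIRK1, GIRK2 and GIRK3, through which transmitters that act on G proteins inhibit neurons. Kcnj3 was at 0.080 ± 0.24 in its main probe set and between -0.072 and 0.17 in the others. All 5 probe sets of Kcnj6 lay below 0, between -0.20 and -0.11, and p300+/- 3 was the lowest array in each of them. The probe set of Kcnj6 used for the gene (1421581_at) was at 0.049, -0.0047 and -0.33 in the p300+/- arrays, against 0.0047, 0.32 and -0.23 in the wild-type arrays, and both genotypes spread widely. Its log2 fold change was -0.0094 without p300+/- 3, and ran from -0.26 without wild-type 3 to 0.019 without wild-type 2. With both p300+/- 3 and wild-type 2 left out it was 0.14. Kcnj9 was at -0.071 ± 0.19, with its other probe sets between -0.067 and 0.37. The lowest Kir gene was Kcnj16 at -0.28, and after Kcnj13 the highest was Kcnj15 at 0.32.

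Leak channels of the K2P group split evenly, with 6 of 12 genes above 0 and a median of 0.0015. Kcnk1 (TWIK1), found in astrocytes and neurons, was highest at 0.20 ± 0.15 (SE). It was at 0.062, -0.062 and 0.30 in the p300+/- arrays, against -0.080, 0.098 and -0.31 in the wild-type arrays, and its other probe set gave 0.40 ± 0.27. The extremes of both probe sets were p300+/- 3 and wild-type 3. Kcnk2 (TREK1), which opens with stretch and lipids, was at -0.11 ± 0.14, and p300+/- 3 was lowest at -0.26. Kcnk6 (TWIK2) was the lowest of the group at -0.18 ± 0.13.

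Of the calcium-activated group besides Kcnma1, Kcnmb4, the BK beta subunit of neurons, was at 0.099 ± 0.14 (SE). Kcnmb1, the beta subunit of smooth muscle, was at 0.26 ± 0.14 in 1 probe set and 0.030 ± 0.12 in the other. Beside it, 7 of 10 vessel markers lay above 0 (55.9% of all genes did), with a median of 0.060. That list was not one of smooth muscle genes, and the part of vessel RNA in the Kcnmb1 value was not tested. Kcnmb2, whose tail inactivates BK channels, was at -0.28 ± 0.16 in 1 probe set and -0.068 ± 0.20 in the other. Kcnn2 (SK2), which carries the afterhyperpolarization in CA1 and sits in dendritic spines, was at 0.032, -0.35 and 0.14 in the p300+/- arrays, against -0.032, 0.24 and -0.40 in the wild-type arrays. The spread within each genotype was far wider than the log2 fold change of 0.0063 ± 0.20. Kcnn3 (SK3) was at 0.054 ± 0.14. Kcnn1 (SK1) was at 0.12 ± 0.17 in 1 probe set and -0.058 ± 0.13 in the other, of the same level class. Kcnn4, the intermediate channel of blood cells and microglia, was at -0.16 ± 0.15 in its bright probe set and 0.14 ± 0.14 in the other.

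The sodium-activated channels had the lowest gene value of the family. Kcnt2 (Slick) was at -0.63, 0.12 and -0.16 in the p300+/- arrays, against -0.026, 0.60 and 0.026 in the wild-type arrays. Its lowest value was in p300+/- 1 and its highest in wild-type 2, and the log2 fold change was -0.42 ± 0.24 (SE; limma, unadjusted p = 0.12). Without either of these arrays it was at -0.22. Kcnt1 (Slack) was at 0.12 ± 0.22, with its other probe sets at 0.11 and 0.089. Kcnu1, which encodes a channel of sperm, was at -0.00045 ± 0.27, where p300+/- 3 (0.52) and wild-type 2 (0.69) were the highest arrays. The antisense transcripts Kcnmb4os1 and Kcnmb4os2 were at -0.0089 ± 0.11 and -0.052 ± 0.11.

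**Figure D4:**
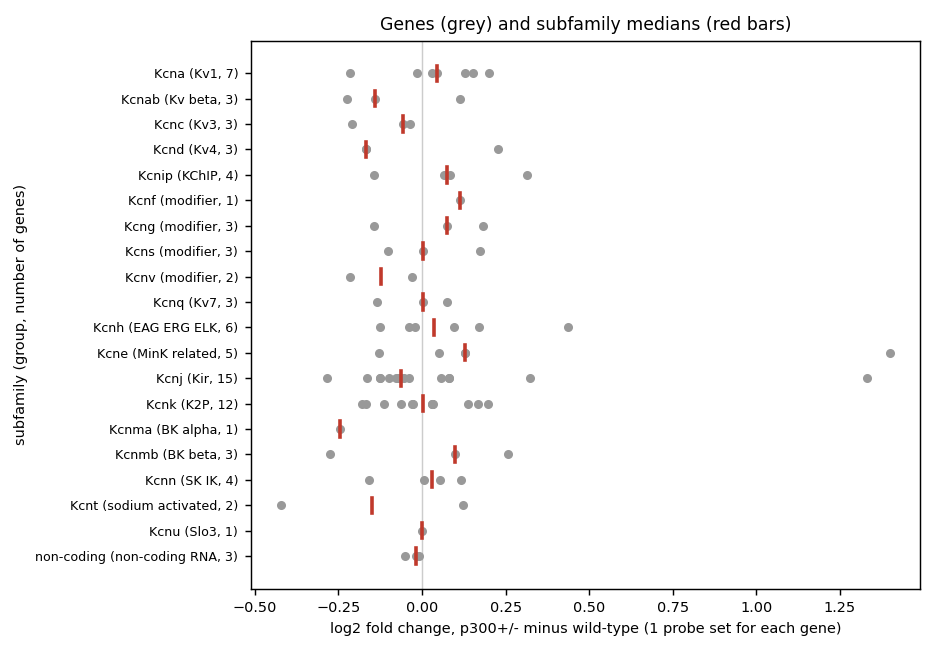
Log2 fold changes (p300+/- minus wild-type) of the genes of each subfamily at 1 probe set for each gene (grey points) with the subfamily median (red bar), and the number of genes in brackets. The medians lie between -0.24 (Kcnma, 1 gene) and 0.13 (Kcne), and Kcne2 at 1.40 and Kcnj13 at 1.33 lie far from all others.

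Read array by array, the low values of the channels gathered in the arrays that stood apart. In p300+/- 3, 15 channel probe sets lay below -0.5 (8.98%, against 5.13% of all probe sets), and 14 of those were below 0 in wild-type 2 as well (93.3%, against 94.6% of all probe sets that low). In wild-type 2, 25 of them, from 20 genes, lay below -0.5 (14.97%, against 6.83% of all), and 22 were below 0 in p300+/- 3 (88%, against 86.5% of all). Both arrays were below -0.5 at 12 probe sets. Wild-type 2 was the lowest array at 49 of the 167 probe sets, or 29.3%, against 18.4% of all. The SD of the channel probe sets was 0.30 in p300+/- 3 and 0.50 in wild-type 2, and between 0.19 and 0.25 in the other arrays. The part of neuronal RNA in these low values was not tested. Without both arrays, 10 channel probe sets had an unadjusted p under 0.05 (limma, against 2.39% of all probe sets) and 0 had an adjusted p under 0.05.

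Probe sets of a single gene often disagreed. Of 46 channel genes with 2 or more probe sets, all probe sets had the same sign in 15 (32.6%, against 37.6% of 9010 genes in all) and differed in sign in 31. Some pairs of bright probe sets differed in how strongly they followed the arrays that stood apart. The pairs shown in the plot of probe set pairs were chosen after their values were seen, as the bright probe sets of a gene with the lowest and the highest value in wild-type 2. For Kcna1, 1417416_at was at -0.51 in p300+/- 3 and -0.64 in wild-type 2, while 1455785_at was at -0.21 and -0.14. For Kcnab2, 1425885_a_at was at -0.87 in p300+/- 3 and -1.90 in wild-type 2, while 1416956_at was at -0.27 and -0.43. Kcna2 gave -0.56 and -0.72 in 1439872_at and -0.036 and -0.034 in 1440759_at. The transcript regions that these probe sets read were not analysed here.

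**Figure D5:**
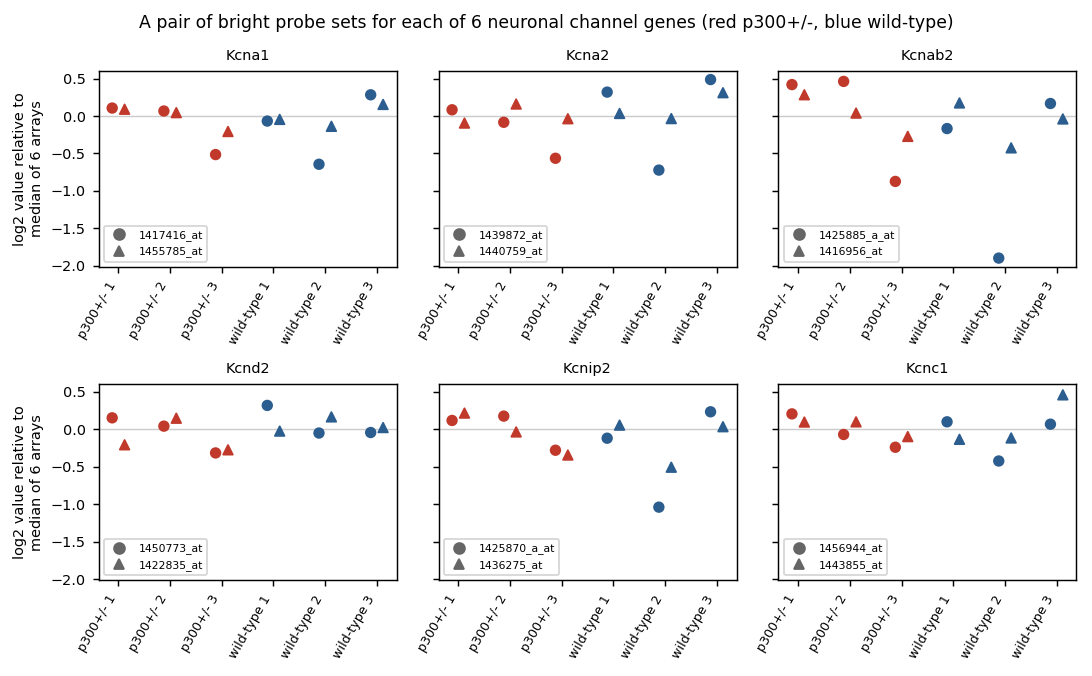
Log2 values relative to the median of 6 arrays for a pair of probe sets (circles and triangles) of each of 6 neuronal channel genes, in the 3 p300+/- arrays (red) and the 3 wild-type arrays (blue). In Kcna1, Kcna2 and Kcnab2 the circles reach -0.64, -0.72 and -1.90 in wild-type 2, and the triangles stay at -0.14, -0.034 and -0.43.

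Split by brightness, the channel genes of the level class from 8 to 16 lay above 0 in 14 of 35 cases (40%, against 54.0% of all genes of that class). In the class from 4 to 8 it was 27 of 44 (61.4%, against 57.6%), and in the lowest class 0 of 5 (0%, against 56.3%). The genes outside the Kcn names that anchor or regulate these channels were read from a list of 32, of which 26 were measured. Of these 15 lay above 0 and 11 below, at a median of 0.062, and 0 passed (limma, and 0 had an unadjusted p under 0.05). The smallest p belonged to Lrrc38, an auxiliary gamma subunit of BK channels, at 0.27 ± 0.14 (SE) and to Gnb5, the G protein beta subunit that joins RGS7 in ending GIRK currents, at 0.17 ± 0.10. Of the other cell types a dissected hippocampus can hold, oligodendrocyte markers lay above 0 in 8 of 10 genes, microglia markers in 6 of 9 and thalamus markers in 7 of 7, with medians of 0.18, 0.14 and 0.10, and 0 of any list passed (limma, 1 thalamus marker with an unadjusted p under 0.05, Zic1). Over all genes 55.9% lay above 0.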

How the data were processed

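The authors deposited 1 value for each probe set and array, 45101 probe sets in all. Per the labels' protocols, the Affymetrix arrays were processed and normalized in GeneSpring GX, with no further steps named. The deposited log2 values have a median of 0 over the 6 arrays of each probe set, so they hold no absolute level. No label names the base of the logarithm. It was taken as 2 from the binary grids of the values, which also gave each probe set's level class. Fold changes depend on that base. On simulated levels the class was right for 98.8% of 18752 rows, where rows that crossed a class boundary were left out. Classes of probe sets whose arrays cross a boundary were therefore not checked.

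Probe sets were named through the platform annotation, and 167 of 167 members matched RefSeq (GRCm38.p6). With 64 control probe sets set aside, the table was fitted in R 4.3.3 by limma 3.58.1 (lmFit, then eBayes, p300+/- minus wild-type, two-sided, no covariates, Benjamini-Hochberg adjustment over 45037, threshold 0.05). The fit was also run on simulated data with independent noise in each array, which lacks the correlation between arrays seen in these data. Intervals cover 95%. The smallest p that an exact two-sided permutation of 3 and 3 arrays allows is 0.1. A gene was read by its probe set of the highest level class, then by the ending of its ID, then by file order.

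The members and lists were chosen with earlier results of these data known. Named were the 10 genes with the smallest p, all genes of subfamilies of up to 4, the extremes of larger ones, and genes known in the hippocampus. Kcnh3, Kcnh8, Ttr, Kl, Tmem72 and Krt8 were added to the named genes after their values were seen. The design grouped genes by the letters of their symbol, and the non-coding RNAs were set apart from the subfamilies after the data were seen. Alternatives were quantile normalization, median centring, moderation with trend, array weights, a block for the replicate number, filters on level class and probe set type, other probe sets for a gene, and each array or the outlying pair left out. Figures were drawn with matplotlib 3.10.9.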

Additional observations from a re-analysis of the deposited data

How the results depend on the processing

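The number of channel probe sets past an adjusted p of 0.05 was 0 under every alternative run (limma; also at a threshold of 0.1), with 5 at an unadjusted p under 0.05 as reported. That number was 10 with array weights (5.99%, against 3.62% of all probe sets), 10 without both p300+/- 3 and wild-type 2 (5.99%, against 2.39%), and 1 in the level class from 8 to 16 alone (1.89%, against 0.741%). It ran from 0 to 7 with a single array left out (0% to 4.19%, against 1.05% to 2.56%). The low end came without p300+/- 2 (0) and without wild-type 1 (1). Probe sets whose genotypes did not overlap, 9 as reported, numbered 44 without both outlying arrays (26.3%, against 28.3% of all probe sets), 3 in the class from 8 to 16 (5.66%, against 4.37%) and 16 to 30 with a single array left out (9.58% to 17.96%, against 12.1% to 18.1%). Fewer arrays make such separation more frequent by construction. Channel genes above 0 were 14 of 35 in the class from 8 to 16. The median log2 fold change over channel genes was -0.037 in that class, 0.049 with the first probe set of each gene in file order, 0.024 with the mean of a gene's probe sets, and between -0.042 (wild-type 2 left out) and 0.027 (wild-type 1 left out) over the fits that drop an array, and the cause of these shifts was not tested. Of the 84 genes 21 changed sign without wild-type 2, 18 without both arrays and 17 with array weights. Ep300 stayed between -0.72 and -0.55 under all alternatives run. The replicate number as a block gave 4 channel probe sets at an unadjusted p under 0.05, 1 higher and 3 lower, of which 2 were among the 5 reported, and left all log2 fold changes as they were. Deviations of same-numbered arrays from their genotype means correlated at 0.61, -0.23 and -0.47. Such deviations sum to 0 within a genotype, and the outlying p300+/- 3 and wild-type 2 carry different numbers. These correlations therefore cannot decide whether the numbers pair the arrays. With the non-coding RNAs counted by their letters, an alternative added after the data were seen, the median log2 fold change of Kcnq was -0.0075 and the median log2 fold change of Kcnmb -0.0089. The number of arrays limits what could be called.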
